A study of Drosophila melanogaster with 6 samples.

Results

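Complex I of the mitochondrial respiratory chain (NADH dehydrogenase) was examined through its nuclear-encoded subunits in the transcriptome of the adult fly fat body. The members were all genes whose FlyBase identifier maps to a current symbol beginning with ND-, the FlyBase naming for NADH dehydrogenase subunits and their paralogues. The name table held 40 such symbols, and 39 of them had a row among the 15682 genes of the count table. The exception was ND-30, a core subunit, which was not analysed here. Of the 39, 33 encode subunits of the complex and 6 are paralogues of subunits. The rule used names only, and no measured value entered the choice of members.

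Complex I takes electrons from NADH, passes them along a chain of iron-sulphur clusters to ubiquinone and pumps protons across the inner mitochondrial membrane. It is an L-shaped assembly with a matrix arm, made of an N module that oxidises NADH and a Q module that reduces ubiquinone, and a membrane arm that pumps the protons. The conserved core subunits carry out the catalysis and are encoded partly in the nucleus and partly in the mitochondrial genome, while accessory subunits surround the core and are needed for assembly and stability. The fat body of the fly stores lipid and glycogen and carries out functions of vertebrate liver and adipose tissue.

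RNA was sequenced from fat bodies dissected from adult female Drosophila melanogaster aged 7 to 10 days, with 3 libraries from FB-Dp110DN flies and 3 from FB-GAL4 flies. FB-Dp110DN flies expressed a dominant-negative transgene of Dp110, the catalytic subunit of a class I phosphoinositide 3-kinase (PI3K) of the insulin pathway, through a constitutive fat body GAL4 driver, and FB-GAL4 flies carried that driver without the transgene. Both groups were in the white Dahomey stock, which carries Wolbachia, and were kept at 25 °C. Each library pooled 5 flies per the labels, while a different number is stated in the methods of the study. Each sample was prepared on its own date per the design text, while the methods describe mutant and control samples paired by the day of processing. Replicate numbers were treated as pairs, which assumes that libraries of 1 number share a day. The comparison addressed how lowering Dp110 activity in the fat body changes the abundance of transcripts in that tissue.

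Depth ranged from 22607341 to 36870161 counts per library. Pi3K92E, the gene of Dp110, to which reads of the transgene also map, was measured at 892, 1246 and 343 CPM in FB-Dp110DN, against 81.0, 89.9 and 94.1 CPM in FB-GAL4 (replicates 1, 2 and 3, the order used throughout). CPM, the count of a gene scaled to a fixed library size, was computed after library sizes were adjusted with edgeR's TMM factors. Fat body markers were abundant in all libraries, at a summed 70995.5, 74384 and 56171 CPM over 9 genes in FB-Dp110DN and 69330.5, 54484 and 23691 CPM in FB-GAL4. The yolk protein genes Yp1, Yp2 and Yp3 made up most of each sum, at 27471, 17795 and 14729 CPM in FB-Dp110DN replicate 1. The replicate 3 libraries stood apart from the others in both groups. Their summed level of 23 muscle marker genes was 51263 CPM in FB-Dp110DN and 27722 CPM in FB-GAL4, against 12838 and 14654 CPM in the other FB-Dp110DN libraries and 11208 and 9110.8 CPM in the other FB-GAL4 libraries. No muscle marker was at 0 in any library, and the lowest had 324 counts. The medians of the gene lists are therefore given with and without replicate 3. Counts at an unadjusted p below 0.05 are given both ways for the complex I, complex II and muscle genes only.

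Summed over the 33 subunits, complex I transcripts reached 5317, 6509 and 8744 CPM in FB-Dp110DN, against 4644, 3955 and 5366 CPM in FB-GAL4. The FB-Dp110DN library was the higher one in each pair, by 1.15-fold, 1.65-fold and 1.63-fold, while the groups overlapped, since FB-GAL4 replicate 3 lay above FB-Dp110DN replicate 1. As a share of all counts, the subunits took 0.524%, 0.605% and 0.762% in FB-Dp110DN and 0.475%, 0.431% and 0.602% in FB-GAL4. In bulk tissue, a change in the number of cells of a type and a change in RNA per cell cannot be told apart.

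All 33 subunits had a positive fitted log2 fold change (FB-Dp110DN over FB-GAL4), against 53.5% of the 10398 genes tested. Their median was 0.48 and their range was narrow, from 0.32 for ND-ACP to 0.64 for ND-20, against a median of 0.04 over all genes tested. Values at or above the lowest of the subunits were held by 27.9% of all genes tested. None of the 33 passed an adjusted p-value of 0.05 in edgeR's quasi-likelihood test with the replicate pair as a block, where 0.0289% of all genes passed, and the adjusted p-values of the subunits ran from 0.157 to 0.323. An unadjusted p below 0.05 was found for 26 of the 33, all higher in FB-Dp110DN, against 13.1% of all genes higher at that level and 12.5% lower. DESeq2's Wald test, run as an alternative with the pair again as a block, called 17 of the 33 higher and none lower at its adjusted p of 0.05, against 6.16% of all genes higher and 3.39% lower.

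These counts depended on the fit. The number of subunits with an unadjusted p below 0.05 was 9 with no replicate block (8.42% of all genes, higher), 8 without replicate 2 (6.56%) and 14 without replicate 3 (12.9%), where no subunit passed an adjusted p of 0.05 and 3.74% of all genes did so as higher. It was 5, against 3.78% of all genes, where library totals were used with no TMM factors. That setting lowered the log2 fold changes of all genes by a median of 0.22. The prior degrees of freedom, which set how far edgeR shares variance across genes, were 4.05 in the main fit. They were 3.69 without replicate 1, 3.07 without replicate 2 and infinite without replicate 3. Counts by p-value without replicate 3 are therefore not on the same footing as the others. All 33 subunits kept a positive log2 fold change in each of these fits. The complex I median exceeded the median of all genes by 0.44 both with TMM factors and without them. That equality carries no weight, since leaving out the factors moves all genes by nearly the same amount.

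**Figure D1:**
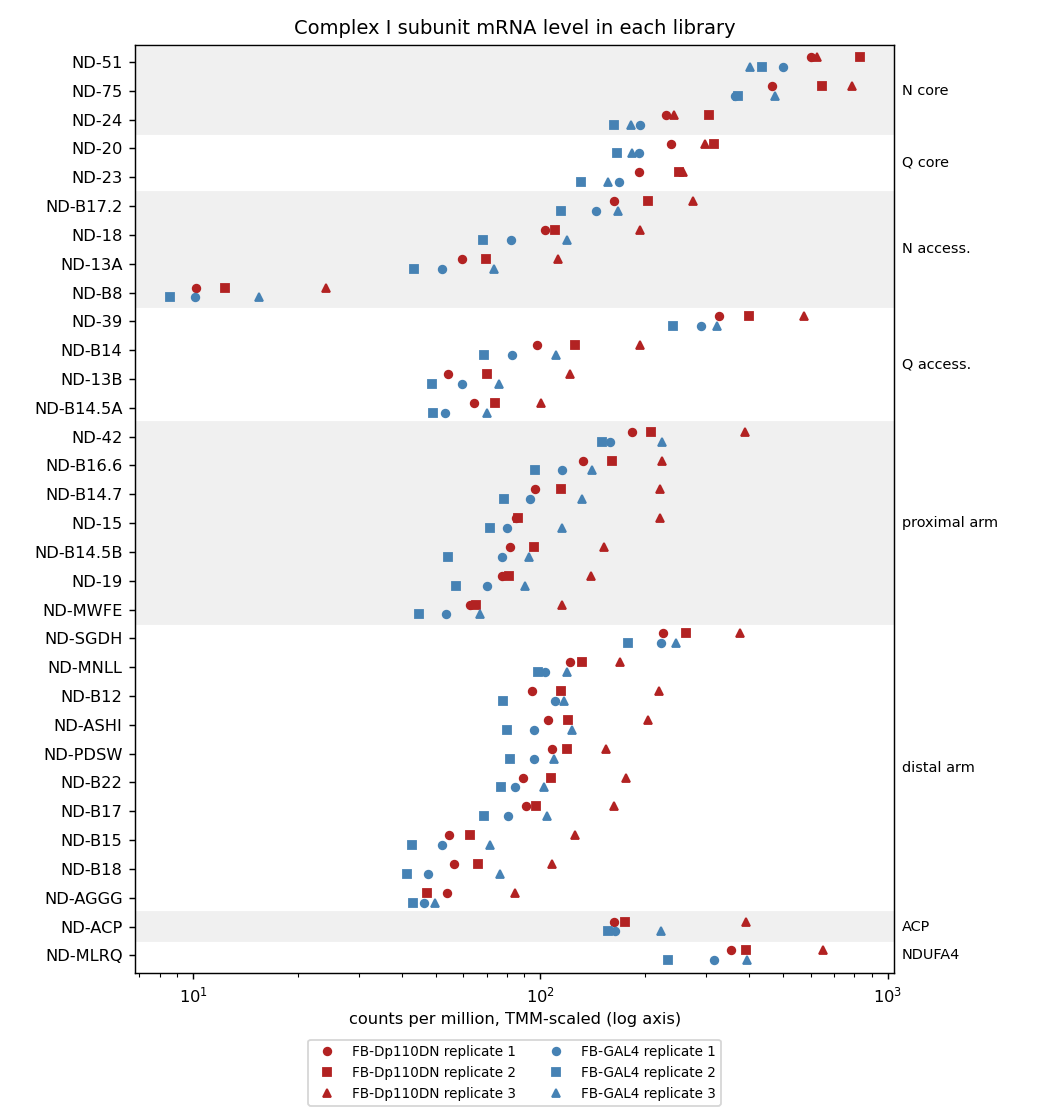
Level of 32 subunits in the 6 libraries, in TMM-scaled CPM on a log axis, with subunits grouped by their place in the complex (red, FB-Dp110DN; blue, FB-GAL4; marker shape gives the replicate number). For 6 of the subunits drawn, 4 of them core subunits, every FB-Dp110DN point lies to the right of every FB-GAL4 point, and the replicate 3 libraries (triangles) lie highest in their group for most accessory subunits.

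The core subunits come first. ND-75 (FBgn0017566, on the X chromosome; human NDUFS1), the large iron-sulphur subunit of the N module, was measured at 465, 646 and 791 CPM in FB-Dp110DN, against 363, 372 and 473 CPM in FB-GAL4. The groups overlapped only through the lowest FB-Dp110DN library and the highest FB-GAL4 library, which come from different pairs. The fitted log2 fold change was 0.63 (SE 0.16, unadjusted p = 0.00678, adjusted p = 0.157 in edgeR), and its DESeq2 adjusted p of 0.00612 was the lowest among the subunits. ND-51 (FBgn0031771, 2L; NDUFV1) carries the flavin that accepts electrons from NADH. Its levels were 601, 832 and 628 CPM in FB-Dp110DN and 500.1, 435 and 401 CPM in FB-GAL4. No FB-GAL4 library reached the lowest FB-Dp110DN library, and the log2 fold change was 0.62 (SE 0.18, unadjusted p = 0.0129). ND-24 (FBgn0030853, X; NDUFV2), which holds an iron-sulphur cluster next to the flavin, had 230.4, 305 and 243 CPM in FB-Dp110DN, against 194, 163 and 182 CPM in FB-GAL4. These groups did not overlap either, with a log2 fold change of 0.52 (SE 0.17, unadjusted p = 0.0220), the lowest of the 6 core subunits.

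In the Q module, ND-20 (FBgn0030718, X; NDUFS7), which holds the last iron-sulphur cluster before ubiquinone, had 237, 316 and 298 CPM in FB-Dp110DN and 193, 166 and 183 CPM in FB-GAL4. ND-23 (FBgn0017567, 3R; NDUFS8), a subunit with a pair of iron-sulphur clusters, had 192, 251 and 257 CPM in FB-Dp110DN and 168, 131 and 157 CPM in FB-GAL4. In both genes the groups did not overlap, and their log2 fold changes lay close together, at 0.64 (SE 0.17) for ND-20 and 0.62 (SE 0.18) for ND-23. The unadjusted p was 0.00840 for ND-20 and 0.0139 for ND-23, and the adjusted p in edgeR was 0.157 for each.

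Over the core subunits, 6 of 6 had an unadjusted p below 0.05, against 13.1% of all genes higher at that level. Their median log2 fold change was 0.62 and their range 0.52 to 0.64. The count was also 6 without the replicate block and without replicate 3, where the core median was 0.60, but it was 2 (ND-20 and ND-75) without replicate 2 and 4 with library totals and no TMM factors. Among the 27 other subunits the median was 0.47 and 20 had an unadjusted p below 0.05, which became 3 without the block, 6 without replicate 2, 1 with library totals and 8 without replicate 3, where their median was 0.34. The shares of all genes higher at that level were 8.42% without the block, 6.56% without replicate 2, 3.78% with library totals and 12.9% without replicate 3. Whether the core differed from the other subunits was not tested, and the core genes also had longer exonic sequence (819 to 2634 bp, against 460 to 1618 bp in BDGP6 gene models).

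Groups that did not overlap, with FB-Dp110DN higher, were found for 7 of the 33 subunits, against 11.6% of all genes higher in this way and 21.0% lower. Of these, 5 were core subunits, among them ND-51, ND-24, ND-20 and ND-23, and the others were ND-39 and ND-MNLL. Without the replicate 3 libraries, 30 of the 33 did not overlap, against 31.9% of all genes, the exceptions being ND-ACP, ND-13B and ND-B12. For most subunits, then, FB-GAL4 replicate 3 was the library that reached into the FB-Dp110DN range.

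Among the accessory subunits of the N module, ND-18 (FBgn0031021, X; NDUFS4), needed in mammals for the stable attachment of this module, had 103, 110.2 and 194 CPM in FB-Dp110DN and 82.3, 68.5 and 119 CPM in FB-GAL4. Replicate 3 was the highest library of each group, and FB-GAL4 replicate 3 lay above both other FB-Dp110DN libraries. Within each pair FB-Dp110DN was higher, and the log2 fold change of 0.57 (SE 0.14) had the lowest unadjusted p of all subunits, 0.00628 (adjusted p = 0.157 in edgeR). ND-B8 (FBgn0040705, 2L; NDUFA2), the subunit of lowest level, had 10.2, 12.4 and 24.2 CPM in FB-Dp110DN and 10.1, 8.56 and 15.5 CPM in FB-GAL4. The fitted value was a log2 fold change of 0.40 (SE 0.19, unadjusted p = 0.0828), and its difference in the first pair was 0.01. The other N module accessory subunits were ND-B17.2 (NDUFA12), with a log2 fold change of 0.58, and ND-13A (NDUFS6), which binds zinc in mammals, with 0.50.

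Of the 4 accessory subunits of the Q module, ND-B14 (FBgn0033570, 2R; NDUFA6), a LYR-motif protein, had 98.0, 126 and 193 CPM in FB-Dp110DN and 82.9, 68.8 and 111 CPM in FB-GAL4. The groups overlapped through FB-GAL4 replicate 3, and the log2 fold change was 0.64 (SE 0.17, unadjusted p = 0.00866), at the upper end of the family. ND-13B (FBgn0047038, 3L; NDUFA5) had 54.3, 70.0 and 122 CPM in FB-Dp110DN and 59.6, 48.7 and 76.1 CPM in FB-GAL4. It was lower in FB-Dp110DN in the first pair, and its log2 fold change of 0.36 (SE 0.19, unadjusted p = 0.103) was among the smallest. ND-39 (FBgn0037001, 3L; NDUFA9), named here after its values were seen, had 327, 399.8 and 575 CPM in FB-Dp110DN and 291, 240.4 and 324 CPM in FB-GAL4. Its groups were separated by little, the lowest FB-Dp110DN library lying just above the highest FB-GAL4 library. ND-B14.5A (NDUFA7) had a log2 fold change of 0.47.

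The membrane arm was represented by 17 nuclear subunits, 7 of its proximal and 10 of its distal part. The median log2 fold change was 0.49 in the proximal part and 0.43 in the distal part. An unadjusted p below 0.05 was found for 6 of 7 and 7 of 10, against 13.1% of all genes higher at that level. Without replicate 3 the medians were 0.34 and 0.33, with 2 of 7 and 1 of 10 at that level (12.9% of all genes, higher). The N and Q modules together had a median of 0.58 with 12 of 14 at that level, or 0.54 with 11 of 14 without replicate 3. The DESeq2 Wald test called 4 of the 17 membrane arm subunits and 12 of the 14 subunits of the N and Q modules, against 6.16% of all genes higher. The difference between the arms was not tested. Of the distal subunits, DESeq2 called ND-B18 alone (FBgn0030605, X; NDUFB7), which had 56.5, 66.0 and 108 CPM in FB-Dp110DN and 47.5, 41.3 and 76.4 CPM in FB-GAL4. On the log2 scale it was higher by 0.48 (SE 0.14, unadjusted p = 0.0132, DESeq2 adjusted p = 0.0432).

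Other distal subunits were among the smallest differences of the family. ND-AGGG (FBgn0058002, 3L; NDUFB2) was measured at 53.7, 47.0 and 84.6 CPM in FB-Dp110DN, against 46.1, 43.0 and 49.6 CPM in FB-GAL4. FB-Dp110DN replicate 3 was the only library far from the rest, and the log2 fold change was 0.37 (SE 0.16, unadjusted p = 0.0637). ND-MNLL (FBgn0029971, X; NDUFB1) had 122, 132 and 170.0 CPM in FB-Dp110DN and 103, 98.6 and 119 CPM in FB-GAL4. The groups did not overlap, and the log2 fold change was 0.39 (SE 0.13, unadjusted p = 0.0240). All 720 bp of ND-MNLL exons lie within exons of another gene, CG45089, on the same strand in BDGP6, so its counts are uncertain. ND-B12 (FBgn0034645, 2R; NDUFB3), named after its values were seen, had 94.8, 114 and 220.2 CPM in FB-Dp110DN and 110.3, 78.0 and 117 CPM in FB-GAL4. Its pairs differed more than those of any other subunit of the distal part, from -0.22 in the first to 0.92 in the third, and the log2 fold change was 0.42 (SE 0.23, unadjusted p = 0.117).

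A pair of proteins were listed apart from these modules. ND-ACP (FBgn0011361, 3L; NDUFAB1), the mitochondrial acyl carrier protein, which also serves fatty acid synthesis in mitochondria, had 163, 175 and 390.2 CPM in FB-Dp110DN and 164, 156 and 222 CPM in FB-GAL4. The difference rested on the third pair, the pair differences being -0.02, 0.16 and 0.81, and the fitted log2 fold change of 0.32 (SE 0.19, unadjusted p = 0.151, adjusted p = 0.323 in edgeR) was the smallest of all 33. ND-MLRQ (FBgn0052230, 3L; NDUFA4), whose mammalian counterpart has been reassigned to complex IV, had 354, 392 and 653 CPM in FB-Dp110DN and 315, 234 and 392 CPM in FB-GAL4. The highest FB-GAL4 library lay level with the middle FB-Dp110DN library, and the log2 fold change was 0.55 (SE 0.17, unadjusted p = 0.0187).

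Per kilobase of exonic length, transcript levels of the subunits spanned 25.6-fold in FB-Dp110DN and 23.5-fold in FB-GAL4. ND-MLRQ was the highest, at 867 CPM per kb in FB-Dp110DN and 583 CPM per kb in FB-GAL4, followed by ND-51 at 432 CPM per kb in FB-Dp110DN and 280.1 CPM per kb in FB-GAL4. ND-B8 was the lowest, at 33.9 CPM per kb in FB-Dp110DN and 24.8 in FB-GAL4. The order of the 33 levels per kb was nearly the same in both groups (Spearman's rho 0.993 across subunits, which share their libraries and gene models). The subunit transcripts were thus far from equal in level, while their differences between the groups all lay between 0.32 and 0.64 on the log2 scale.

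The 6 paralogues, among them ND-20L, ND-24L, ND-51L1, ND-51L2 and ND-B14.5AL, were at or near the limit of detection. They had 11 counts in all over the 6 libraries, with at most 2 in a library, and ND-24L and ND-B14.5AL were at 0 in every library. A count of 0 allows up to 3 counts, which is 0.0852 CPM in the deepest library and 0.132 CPM in the shallowest, counting error only. Their differences between the groups were not detectable at this depth. The subunits themselves had 211 to 28521 counts in a library, and all 33 passed the filter on low counts.

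**Figure D2:**
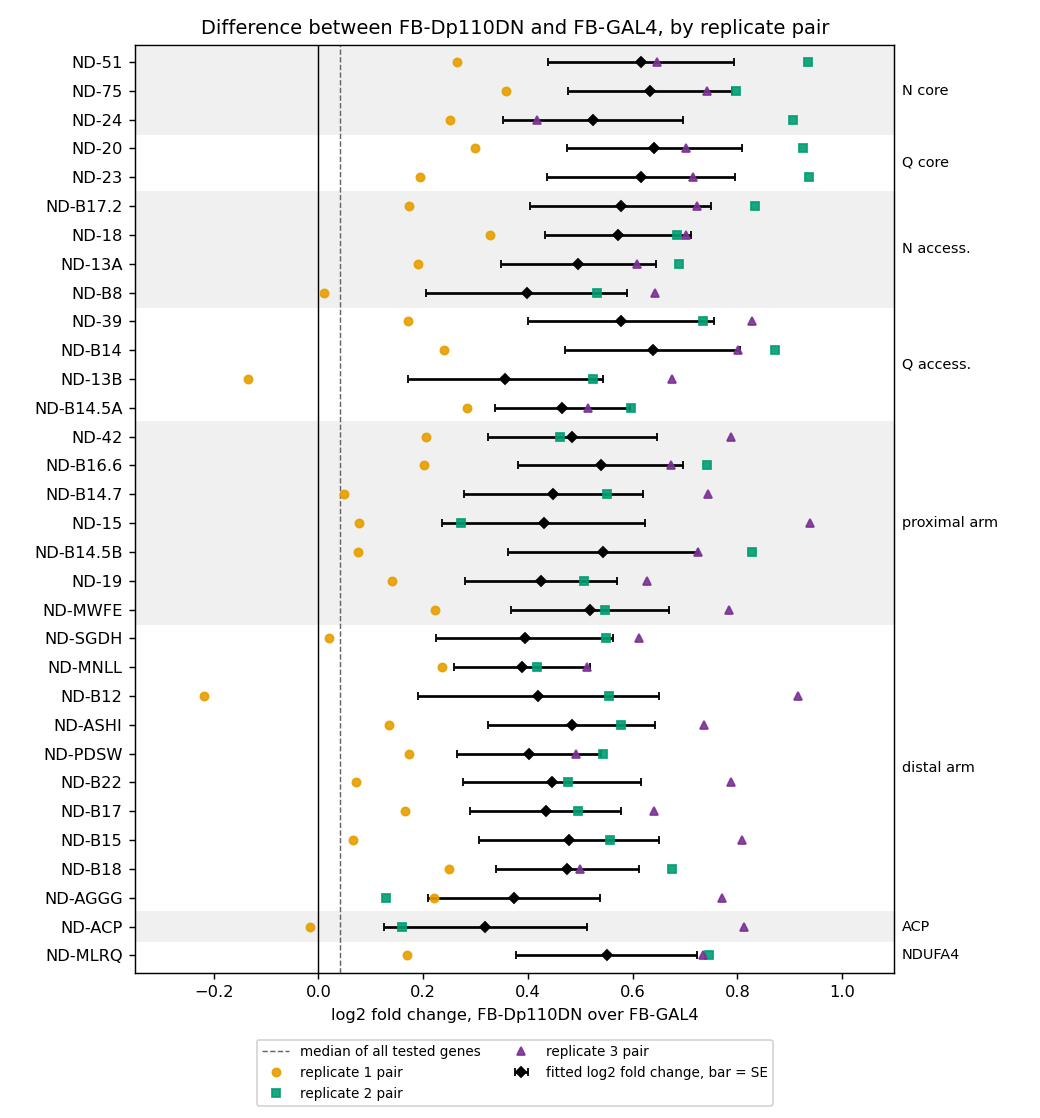
Log2 fold change of 32 subunits, FB-Dp110DN over FB-GAL4: coloured points are the 3 replicate pairs, black diamonds the fitted value with its standard error, and the dashed line the median of all genes tested (0.04). Every diamond lies to the right of 0, the first pair gives the smallest difference for 31 of the 32, and the second pair gives the largest for the 5 core subunits drawn.

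The size of the difference varied between pairs and, within a pair, between subunits. The subunits ran from -0.22 to 0.36 in the first pair, from 0.13 to 0.94 in the second and from 0.42 to 0.94 in the third. The median over the subunits was 0.17 in the first pair, 0.58 in the second and 0.72 in the third, a mean of 0.49 ± 0.28 (SD, n = 3 pairs), while the medians of all genes tested were -0.01, 0.04 and 0.03. FB-Dp110DN was higher in all 3 pairs for 30 of the 33 subunits, against 28.3% of all genes. The exceptions, ND-ACP, ND-13B and ND-B12, were each lower in FB-Dp110DN in the first pair. The first pair gave the smallest difference for 32 of the 33 subunits, ND-AGGG being the exception. That pattern and the lower values in the first pair rest on pairing replicates 1 and 2 by title. Across genes, FB-Dp110DN 1 deviated with FB-GAL4 1 at r = 0.42 and with FB-GAL4 2 at r = 0.38, so the data do not settle this pairing. The replicate 2 pair gave the largest for all 6 core subunits and for 9 of the 27 others. For the other 18 it was the replicate 3 pair. These orders and the pair medians depend on the TMM factors, which differed by group. The factors were 0.986, 0.930 and 0.872 in FB-Dp110DN and 1.02, 1.09 and 1.12 in FB-GAL4. As a share of all counts, the summed subunits took 0.605% in FB-Dp110DN replicate 2 against 0.431% in FB-GAL4 replicate 2. For replicate 3 the shares were 0.762% and 0.602%, a smaller ratio. The order of pairs for single subunits was not examined without the factors.

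The replicate 3 libraries also differed from the rest within each group. Over both groups, the subunits were higher in replicate 3 than in the mean of replicates 1 and 2 by a median of 0.65 on the log2 CPM scale, and 31 of 33 were higher, against a median of -0.02 over all genes tested. The median was 0.80 within FB-Dp110DN and 0.46 within FB-GAL4. This difference ranged from -0.20 for ND-51 to 0.99 for ND-15 (NDUFS5, a proximal membrane arm subunit, named after its values were seen), which had 84.8, 86.3 and 222 CPM in FB-Dp110DN and 80.3, 71.5 and 116 CPM in FB-GAL4. ND-51 and ND-24 (-0.04) were the exceptions to the sign. Core subunits had a median of 0.11 and a range up to 0.45, while the other subunits ran from 0.33 to 0.99 with a median of 0.67.

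The make-up of the complex I transcript pool moved with the replicate as well. Core subunits took 41.4%, 45.1% and 32.7% of the summed complex I CPM in FB-Dp110DN, against 38.8%, 39.9% and 33.8% in FB-GAL4. ND-51 alone took 7.18% in FB-Dp110DN replicate 3 and 7.47% in FB-GAL4 replicate 3, while its share in the other libraries ran from 10.8% to 12.8%. The lowest core share of each group was that of replicate 3. Across the 33 subunits, the difference of replicate 3 from the others and the log2 fold change between the groups had a Pearson's r of -0.47, and the mean level (log2 CPM) and the log2 fold change had an r of 0.53. These are descriptions across genes that share the same 6 libraries, and the first relation also shares the replicate 3 counts on both axes.

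**Figure D3:**
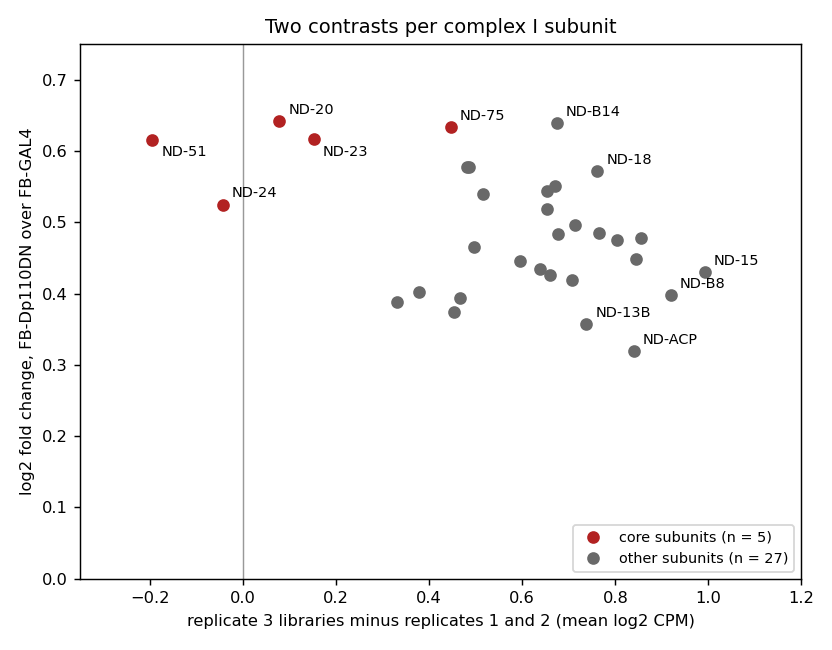
Log2 fold change between FB-Dp110DN and FB-GAL4 (vertical axis) against the difference of the replicate 3 libraries from replicates 1 and 2, averaged over the groups (horizontal axis, log2 CPM), for 32 subunits. The 5 core subunits drawn (red) lie at 0.45 or below on the horizontal axis and at 0.52 or above on the vertical axis, while the other subunits (grey) spread from 0.33 to 0.99 horizontally and from 0.32 to 0.64 vertically.

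The rest of the complex and its neighbours in the chain were compared with lists of genes. The 7 core subunits encoded in the mitochondrial genome (mt:ND genes) had a summed level of 3671, 3807 and 11009 CPM in FB-Dp110DN, against 3397, 2657 and 5428 CPM in FB-GAL4. All 7 had a positive log2 fold change, with a median of 0.55. An unadjusted p below 0.05 was found for 3, against 13.1% of all genes higher at that level. The lowest p was that of mt:ND3, at 108, 102 and 234 CPM in FB-Dp110DN and 93.1, 72.6 and 123 CPM in FB-GAL4, with a log2 fold change of 0.55 (SE 0.17, unadjusted p = 0.0189). The extremes of the list were its genes of lowest level, mt:ND6 with 0.89 (SE 0.66) and mt:ND4L with 0.27 (SE 0.39). Replicate 3 exceeded the other replicates by a median of 0.96 (log2 CPM), more than the 0.65 of the nuclear subunits, a difference that was not tested. Pair medians of the mt:ND genes were 0.11, 0.48 and 1.01, so the third pair carried the largest difference. Without replicate 3 the median of these genes was 0.29, none of the 7 had an unadjusted p below 0.05 (12.9% of all genes, higher), and mt:ND4L was lower in FB-Dp110DN (-0.21).

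Succinate dehydrogenase (complex II), which feeds electrons from succinate to ubiquinone, had a summed level of 1438, 1989.7 and 2161 CPM over its 4 genes in FB-Dp110DN and 1146, 1006 and 1206 CPM in FB-GAL4. In this sum the groups did not overlap. Of the single genes, SdhA and SdhB did not overlap either, against 11.6% of all genes higher in this way, while SdhC and SdhD did. All 4 genes had an unadjusted p below 0.05 (13.1% of all genes, higher) and were called by DESeq2 (6.16% of all genes, higher). Their median log2 fold change was 0.69. Without replicate 3 the median was 0.63 and all 4 still had an unadjusted p below 0.05 (12.9% of all genes, higher). SdhA, the flavoprotein, was at 568, 805 and 847 CPM in FB-Dp110DN and 433, 420.5 and 479 CPM in FB-GAL4, with a log2 fold change of 0.72 (SE 0.17, unadjusted p = 0.00503). SdhB, the iron-sulphur subunit, had 0.75 (SE 0.19) and the membrane anchor SdhD 0.66 (SE 0.16).

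Assembly factors build complex I and do not remain in it. Of 11 such symbols listed, 6 matched a gene in the table. Their summed level was 182, 171 and 206 CPM in FB-Dp110DN and 161, 167 and 155 CPM in FB-GAL4, with a median log2 fold change of 0.16 and pair medians of -0.05, -0.03 and 0.34. Without replicate 3 the median was 0.01. CG3270, the fly counterpart of human FOXRED1, was the one gene of the list with an unadjusted p below 0.05 in edgeR (log2 fold change 0.65, SE 0.26, unadjusted p = 0.0451). That is 16.7% of the 6 genes, near the 13.1% of all genes higher at that level. CG3270 was lower in FB-Dp110DN in the second pair. ECSIT had the lowest value of the list, -0.13 (SE 0.17, unadjusted p = 0.456). The subunits had a larger median than their assembly factors, and that difference was not tested.

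**Figure D4:**
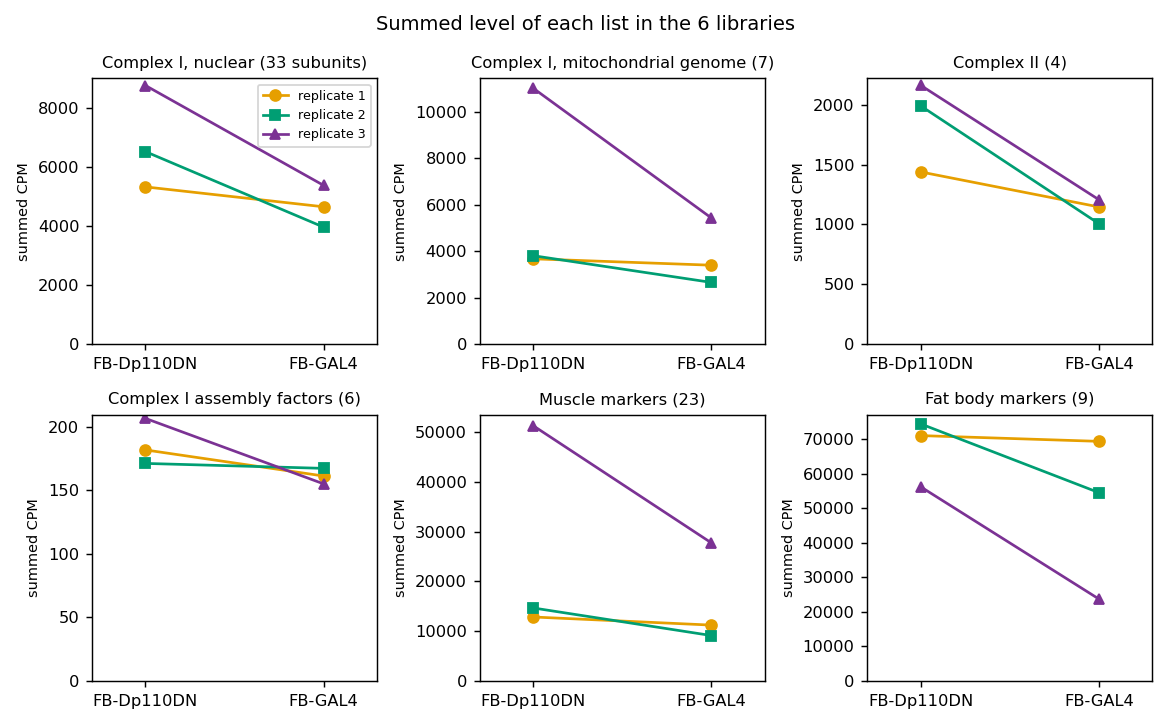
Summed TMM-scaled CPM of 6 gene lists in the 6 libraries, FB-Dp110DN at the left of each panel and FB-GAL4 at the right, with a line joining the libraries of a replicate pair. Each axis starts at 0 and has its own scale. Complex I (nuclear and mitochondrial) and muscle markers are highest in replicate 3 of both groups, complex II differs little between FB-GAL4 replicates, and fat body markers are lowest in replicate 3.

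Marker genes of several cell types were set beside these values, and the lists differed in how they moved. Of the 23 muscle markers, 22 had a positive log2 fold change and 19 an unadjusted p below 0.05, against 13.1% of all genes higher at that level. Their median was 0.56 and their pair medians were 0.18, 0.80 and 0.86. In replicate 3 they exceeded the other replicates by a median of 1.58 on the log2 CPM scale. The DESeq2 Wald test called 15 of the 23 muscle markers higher, against 6.16% of all genes. The 3 flight muscle markers had a summed level of 202, 289 and 7126 CPM in FB-Dp110DN and 155, 296 and 3838 CPM in FB-GAL4. Fat body markers had a median log2 fold change of 0.56 and pair medians of 0.06, 0.53 and 0.66, with 9 of 9 positive and 2 at an unadjusted p below 0.05. In replicate 3 most of them were lower than in the other replicates (median -0.81), while 2 were higher, Lsp2 by 2.59 and bmm by 0.07. Without replicate 3 the median log2 fold change of the fat body markers was 0.23. That of the muscle markers was then 0.52, with 8 of 23 at an unadjusted p below 0.05 (12.9% of all genes, higher). Neuron markers, 9 genes summing to 198, 235 and 206 CPM in FB-Dp110DN and 174, 148 and 158 CPM in FB-GAL4, had a median of 0.42, or 0.43 without replicate 3, and stood little apart in replicate 3 (median 0.07). Of these 9, 8 were positive and 5 had an unadjusted p below 0.05. Groups did not overlap for 6 of the 9, against 11.6% of all genes higher in this way. Germline and eggshell markers, at 3632 to 6097 CPM in FB-Dp110DN and 5169.8 to 5530.3 CPM in FB-GAL4 over 19 genes, went the other way, with 13 of 19 negative and a median of -0.31, or -0.69 without replicate 3. Gut protease genes had a median of 0.20 with 12 of the 21 tested positive, or a median of 0.08 without replicate 3, and were lower in replicate 3 (median -1.29). The part of these cell types in the complex I differences was not tested. With the replicate 3 pair left out, the complex I median was 0.39, its range 0.08 to 0.62, and all 33 subunits were still higher in FB-Dp110DN.

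The members are spread over the major chromosome arms, with 9 on 2L, 8 on 2R, 8 on 3L, 4 on 3R and 9 on X. In BDGP6 gene models, exons of 18 of the 33 subunits overlap another gene, 16 of them on the opposite strand and 4 on the same strand, and whether reads were counted by strand is not given in the sources used here, so counts of overlapping genes are uncertain. The median log2 fold change was 0.52 for the 15 subunits with no overlap and 0.48 for the 18 with one.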

How the data were processed

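Libraries were prepared from mRNA with 1 ug of RNA and 10 PCR cycles. Reads were paired-end, aligned by the authors with TopHat2 2.0.11 to BDGP5 and counted per gene with HTSeq, and the count columns were deposited raw, without normalization. The other deposited columns hold the authors' own DESeq2 comparison and were not used: a mean signal over libraries, a log2 fold change with its error, a Wald score and p-values. FB-GAL4 replicates 2 and 3 carry the same description, so their numbers rest on titles. The methods call the 3 libraries of a group biological repeats.

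Counts were tested with edgeR 4.0.16 in R 4.3.3 (quasi-likelihood, TMM, filterByExpr by group, 10398 genes, Benjamini-Hochberg over all of them, calls at 0.05), with group and replicate block. Same-numbered libraries deviated together from their group means (r = 0.42, 0.19 and 0.59 across genes, on log2 CPM with a prior count of 2). Replicates 1 and 2 were not told apart by this check, since FB-Dp110DN 1 with FB-GAL4 2 gave 0.38 and FB-Dp110DN 2 with FB-GAL4 1 gave 0.22, so their pairing rests on the titles and the methods. The block stands for the day of processing named in the methods, on the assumption that libraries of 1 number share a day. SE was computed from the log2 fold change and the F statistic. Alternatives were DESeq2 1.42.0, its size factors, other filters, no block, each pair left out, mitochondrial genes removed, and, chosen after seeing the data, plain library totals. The code was tested on simulated counts. Symbols matched 15002 genes, and 680 without one stayed in the tests under their identifiers. Arms and exonic lengths come from BDGP6 and no coordinates are given, since the counts rest on BDGP5.

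Members, modules and lists were chosen with earlier results of these data known. Named members were the core subunits, the 4 largest and 4 smallest log2 fold changes, the 5 lowest p-values, the 4 highest and 3 lowest mean levels, and the paralogues, with at most 3 examples from each other list. The individual values of 1 core subunit and 1 paralogue are not reported here, though they stay in all counts and medians. Any other gene named by its values is an addition made after they were seen.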

Additional observations from a re-analysis of the deposited data

How the results depend on the processing

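No group was large enough for a check for single outlying samples. Genes called over the whole table numbered 3 in edgeR with the replicate block, 993 with the DESeq2 Wald test, 9 with no filter and 0 with no replicate block (2468 at an unadjusted p below 0.05). Leaving out each pair gave 0 to 875 called genes, 0 of them complex I subunits, the 875 arising without replicate 3. In that fit edgeR's prior degrees of freedom were infinite, so its count is not on the same footing as the others. The 0 called subunits became 17 under the DESeq2 Wald test. Subunits with an unadjusted p below 0.05 numbered 26, falling to 9 with no replicate block and 5 with library totals without scaling factors, and running from 8 to 31 with each pair left out. The complex I median ran from 0.39 to 0.69 with a pair left out and was 0.27 with library totals. That setting also moved the share of higher genes among those with an unadjusted p below 0.05 to 13.1%, against 51.2% with TMM, 59.2% with DESeq2 size factors and 35.5% with no block. Of 330 combinations of 33 subunits and 10 alternatives, 313 kept direction and side of the adjusted threshold, 17 passed it only under DESeq2, and none reversed. With 3 pairs, a typical SE of 0.13 to 0.23 limits what can be called.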
